A study of Mus musculus with 12 samples.

Results

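The anterior hard palate of mouse embryos that make extra Fgf8 was followed from embryonic day 14.5 (E14.5) to E16.5, using the 6 mutant libraries among the 12 of an RNA-seq study. They were chosen by their labels: 3 libraries from E14.5 and 3 from E16.5 embryos of the genotype Shox2Cre;R26RFgf8, in which a Cre recombinase made where the Shox2 gene is active switches on an Fgf8 transgene placed at the Rosa26 locus. The other 6 libraries came from embryos labelled wild type, 3 at each age, and served to show what the same 2 days bring without the transgene. All groups were C57BL/6 mice, and total RNA was taken from the anterior hard palate. The labels do not say whether a library is 1 embryo or a pool, nor that the samples of a group were prepared apart, so p-values measure the spread between these samples, which may be technical.

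Fgf8 is a secreted growth factor that acts through FGF receptors on the MAP kinase cascade, which turns on the ETS factors Etv4 and Etv5 and the feedback inhibitors of the Sprouty and Dusp families. In the palate, shelves of neural crest mesenchyme fuse at the midline around the earlier age. Bone then forms in the front, the oral side stratifies and cornifies, and the nasal side becomes a ciliated and secretory respiratory epithelium. Shox2 is a transcription factor of the anterior palate mesenchyme, so the Cre confines the transgene to cells with a history of Shox2 expression, whereas the epithelium of the same tissue lies next to them.

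The libraries held 76417891 to 125996587 counted reads, and 17550 of 24391 genes were tested. Fgf8 itself stood at 10.5, 11.1 and 10.8 CPM (counts scaled to 1000000 per library) in the E14.5 mutants and at 16.5, 14.01 and 17.8 CPM in the E16.5 mutants, against 0.249 to 0.462 CPM in the 6 control libraries. It was high at both ages and rose 1.49-fold between the ages (adjusted p = 0.00912 by edgeR's quasi-likelihood test with Benjamini-Hochberg adjustment, used throughout). With E16.5 mutant library 2 as the only library of its group the value was 0.40 on the log2 scale, with an adjusted p of 0.168. Shox2, a marker of the dissected region, ran from 85.3 to 231 CPM over all 12 libraries, and fell by 0.61 on the log2 scale in the mutants (SE 0.11, adjusted p = 0.000614).

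Some libraries stood apart from the others of their group. A list of 18 neuronal genes summed to 181, 199 and 188 CPM in the E14.5 mutants, but to 464, 95.7 and 284 CPM in E16.5 mutant libraries 1, 2 and 3, against 89.9 to 91.6 CPM in the E16.5 controls. Stmn2, a microtubule regulator of growing neurons, was at 54.0, 7.06 and 28.4 CPM in those 3 libraries, and Fgf15, which is made in the embryonic retina and brain, at 40.4, 0.347 and 21.2 CPM. Of the 18 neuronal genes, 6 rose and 1 fell in the mutants with all libraries, whereas 1 rose and 10 fell with library 2 as the only E16.5 mutant. The retina list, of 16 genes, went from 12 that rose to 2. Values without libraries 1 and 3 stand beside many of the results below. Library 1 was also low in immediate early genes, with Fos at 55.6 CPM against 467 and 239 CPM in the other two. The sex markers moved too: Xist, made from the inactive X chromosome of females, went from 441 to 521 CPM in the E14.5 mutants to 888 to 914 CPM in the E16.5 mutants, against 709 to 861 CPM and 341 to 481 CPM in the controls. The part of the sex of the embryos in other results was not tested.

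**Figure D1:**
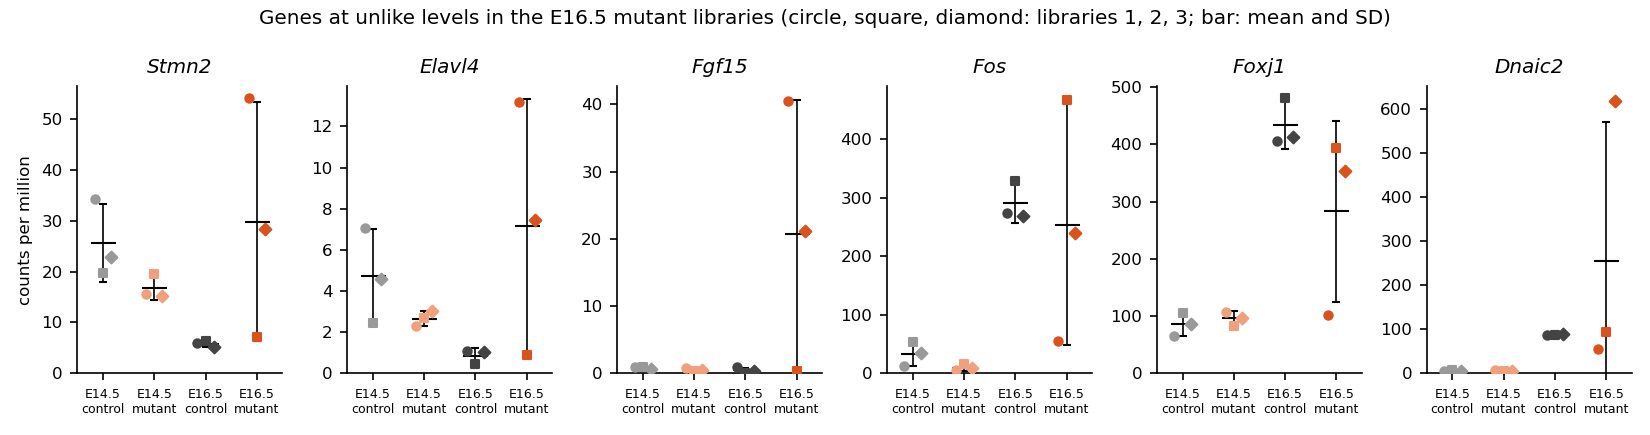
CPM of 6 genes (vertical axes) in the 4 groups (horizontal axes), with a symbol for each library and a bar for the mean and SD. In the E16.5 mutants the neuronal genes Stmn2 and Elavl4 and the retinal gene Fgf15 are high in libraries 1 and 3 and low in library 2, Fos and Foxj1 are low in library 1, and Dnaic2 is high in library 3.

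Much of the program that ran in controls also ran under sustained Fgf8, with smaller changes for many genes. In the mutants 4769 genes rose (27.2% of those tested) and 4290 fell (24.4%), against 6016 (34.3%) and 5636 (32.1%) in controls. In either direction 51.6% passed in mutants and 66.4% in controls. The libraries of the 2 ages did not overlap for 4988 genes higher (28.4%) and 4896 lower (27.9%) at E16.5 in mutants. At least 2-fold, more genes rose than fell: 2368 genes (13.5%) rose and 515 (2.93%) fell at least 2-fold in mutants. The 2 age comparisons share no library, and 8045 genes passed in both, 7903 of them in the same direction, which is 87.2% of the genes called in mutants and 67.8% of those called in controls. The first principal component, with 77.5% of the variance, placed the E14.5 libraries of both genotypes between −102 and −82.5, the E16.5 controls between 110 and 116, and the E16.5 mutants between, at 60.5, 71.7 and 63.0.

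Genes that changed at least 2-fold with age in controls were then sorted by what they did in mutants. Of 3158 that rose in controls (18.0% of those tested), 2618 (82.9%) also rose in the mutants, 201 (6.36%) lost the rise, meaning that no rise was called in mutants and the difference between genotypes was, 5 of them having turned into a fall, and 339 were undecided. The falls were lost more often than the rises by the same count: of 1497 genes that fell in controls (8.53%), 985 (65.8%) also fell in mutants, 286 (19.1%) lost the fall, 28 of them having turned into a rise, and 226 were undecided, a contrast between the shares that was not itself tested. Among the genes that matured in both, 1178 rises and 528 falls were weaker in mutants by the test of the difference, and 11 rises and 21 falls were stronger. The background for that test was 1750 genes (9.97%) with a higher and 2171 (12.4%) with a lower age change in mutants, 22.3% in all. At least 2-fold lower it was 921 (5.25%). The median age change of the control risers was 2.39 in controls and 1.501 in mutants on the log2 scale, and that of the control fallers −1.45 and −0.71, while over all tested genes the medians were 0.003 in mutants and −0.003 in controls. Lost falls dropped from 286 to 102 with library 2 as the only E16.5 mutant, and were 440 without library 2. Lost rises were 163 and 239 under the same omissions.

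**Figure D2:**
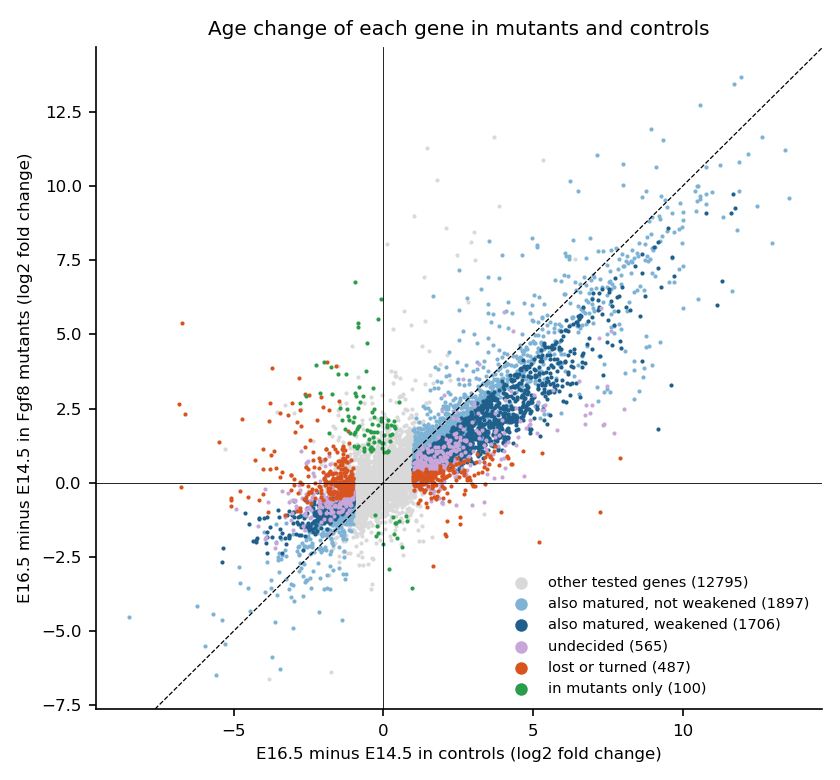
Each point is 1 of 17550 genes, with its E16.5 minus E14.5 log2 fold change in controls on the horizontal axis and in Fgf8 mutants on the vertical axis, coloured by class; the dashed line marks equal change. The control risers lie mostly below the line on the right, where the median is 2.39 in controls and 1.501 in mutants; the 25 genes that were both lost and called in mutants only are drawn as lost or turned.

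Lost changes were sorted into 2 forms by the age at which the genotypes lay apart. For 137 of the 201 lost rises the E16.5 mutant libraries all lay below the E16.5 controls while the E14.5 libraries of the genotypes overlapped or were not ahead, 12 were already above the controls at E14.5 without falling short later, and 52 showed both. For the 286 lost falls the counts were 169, 37 and 58, and 22 showed neither. Lost changes were chosen by a called difference between genotypes, which favors separation of the genotypes at either age. The share of all tested genes with such separation is not given here. The counts therefore describe how the lost genes divide and do not test it.

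**Figure D3:**
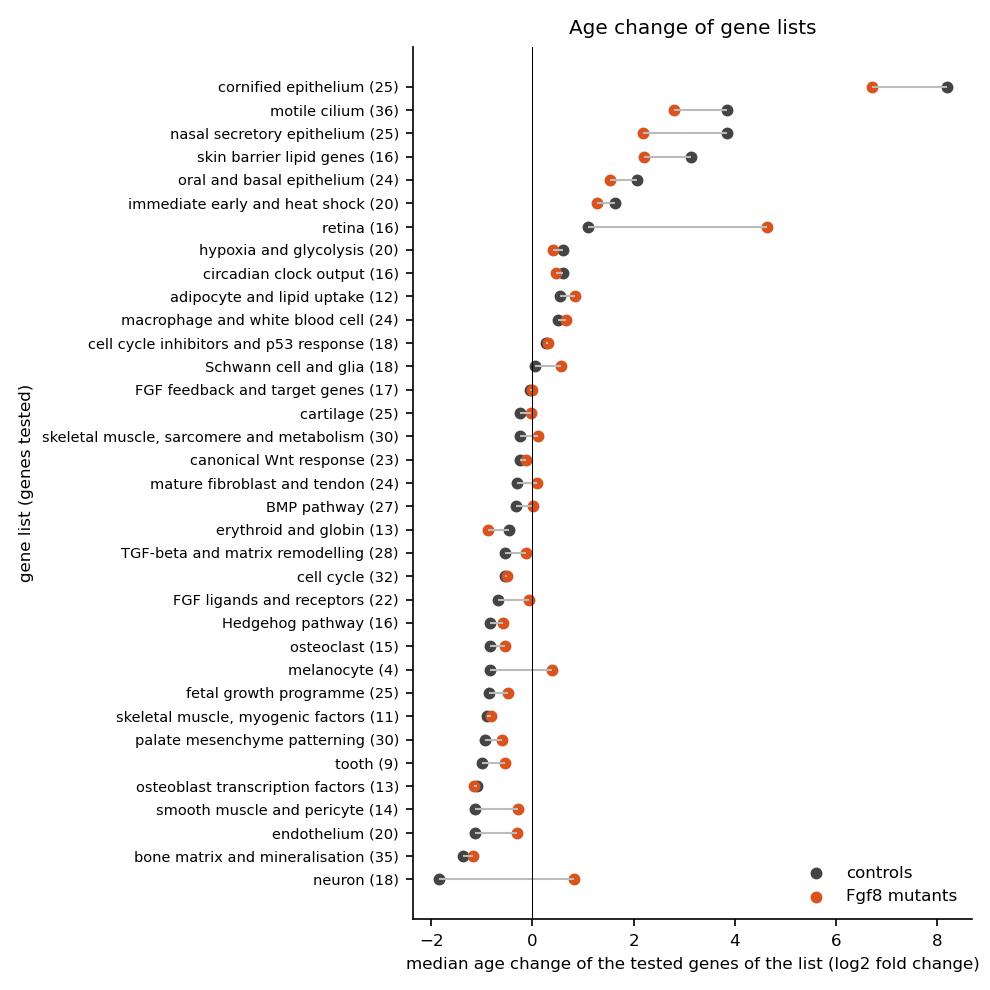
Median E16.5 minus E14.5 log2 fold change (horizontal axis) of the tested genes of 35 gene lists (vertical axis, with the number of genes), in controls and in Fgf8 mutants. Epithelial lists lie farthest to the right in controls, and also in mutants apart from the retina list, at 4.65 there. The cornified epithelium has medians of 6.72 in mutants and 8.19 in controls. The retina and neuron lists, where the genotypes lie far apart, rest on E16.5 mutant libraries 1 and 3.

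The FGF target genes took different courses between the ages. Spry4, a Sprouty inhibitor of receptor signaling, stood at 48.6, 52.6 and 63.3 CPM in the E14.5 mutants and at 66.7, 48.1 and 77.3 CPM in the E16.5 mutants, so the ages overlapped. In controls Spry4 went from 18.8 to 26.2 CPM at E14.5 to 6.79 to 10.4 CPM at E16.5, and the age change differed between genotypes by 1.63 on the log2 scale (adjusted p = 0.00106). Dusp6, a phosphatase that switches off ERK, was at 200 to 230 CPM in the E14.5 mutants and 207 to 218 CPM in the E16.5 mutants, while its difference from the control fall was 0.88 (adjusted p = 0.00504). Spry1 rose by 0.88 in mutants, from 80.4 to 87.1 CPM to 146 to 158 CPM. Etv4 went the other way: the E14.5 mutants held 53.4, 59.3 and 51.7 CPM, above all E14.5 controls, and the E16.5 mutants 5.11, 8.92 and 4.95 CPM. That fall, 8.71-fold (−3.12 ± 0.21 SE on the log2 scale, adjusted p = 5.55e-08), was larger than the 3.72-fold fall in controls, by −1.23 (adjusted p = 0.00675). With library 2 alone at E16.5 the difference was −0.70 with an adjusted p of 0.0672. Its relative Etv5 stayed at 92.6 to 99.6 CPM and then 82.5 to 103 CPM. Of 17 feedback and target genes, 5 rose and 3 fell in mutants, with a median of −0.01. Over all tested genes 27.2% rose and 24.4% fell in mutants, which is the background for the list counts below. The counts of this list do not set it apart from that background.

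Other FGF ligands did not follow one course. Fgf18, a ligand of osteogenic mesenchyme, went from 5.57, 5.31 and 5.202 CPM to 0.343, 1.23 and 0.857 CPM in mutants, a fall of −2.77 ± 0.30 SE on the log2 scale that exceeded the control fall by −2.10 (adjusted p = 0.00224). Fgf3 lost its fall: the mutants had 3.15 to 3.96 CPM at E14.5 and 3.92, 1.68 and 2.73 CPM at E16.5, while the controls went to 0.764 CPM or less. Its difference of 3.65 had an adjusted p of 0.0106 with all libraries, and was 2.95 with an adjusted p of 0.0707 with library 2 alone at E16.5. Among 22 ligand and receptor genes tested, 3 rose and 8 fell in mutants and 6 rose and 14 fell in controls.

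Genes of cornification were among those with the largest rises with age in the mutants. All 25 genes of the cornified epithelium list rose in both genotypes, with median log2 changes of 6.72 in mutants and 8.19 in controls. Krt13, a keratin of the suprabasal oral mucosa, went from 7.96, 10.2 and 15.1 CPM to 5609, 7109 and 6084 CPM in mutants, and to 8661 to 9250.3 CPM in controls. Its rise was 565-fold, and the difference from controls did not pass (−0.89, adjusted p = 0.146). The 10 largest rises in mutants were picked among called genes averaging at least 1 on the log2 CPM scale. Their mutant libraries also had to be without overlap between the ages. Of these 10 genes, 9 belong to squamous differentiation or its proteases and inhibitors, and the remaining one is Myoc. Among the 9 are Cnfn, Sprr3 and Crct1, which encode cornified envelope proteins, and the peptidase Klk14. Cnfn went from 0.099, 0.123 and 0.427 CPM to 370, 411 and 319 CPM. For these 10 genes the lack of overlap was a condition of the choice, so the separation is not a result.

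For part of each epithelial list the rise was smaller in mutants. The age change was lower in mutants than in controls for 9 of the 25 cornified genes. Dsc1, a desmocollin of the upper layers, reached 14.5, 12.8 and 14.9 CPM in the E16.5 mutants and 51.9 to 61.8 CPM in the controls, and its rise was smaller by −2.94 (adjusted p = 0.000156). Krt10, a keratin of cornifying skin, rose from 16.9 to 20.3 CPM to 378 to 424 CPM in mutants and from 13.3 to 18.9 CPM to 713 to 868 CPM in controls, a difference of −1.14 (adjusted p = 0.000475). Among 16 barrier lipid genes 14 rose and 1 fell in mutants, and for 7 the change was smaller than in controls, including Abca12, the lipid transporter of lamellar granules, at 22.1 to 26.9 CPM against 39.0 to 43.6 CPM. In the basal and oral keratin list 22 of 24 genes rose in mutants and 24 in controls, and for 11 the change was lower in mutants. Krt5, a basal keratin, rose from 380 to 429 CPM to 2527, 4253 and 3639 CPM, and the difference from controls was not called. With library 2 alone at E16.5 the genes with a smaller change were 6 of 25, 4 of 16 and 3 of 24 in these 3 lists, whereas the medians in mutants were 6.82, 2.14 and 1.82. Bulk RNA cannot tell fewer cells of a type from less RNA per cell.

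Genes of simple epithelia, named here after their values were seen, rose less or were not called in mutants. Krt8, a keratin of simple epithelia, rose 1.76-fold in mutants, from 135, 99.3 and 114 CPM to 161, 256 and 194 CPM, less than in controls by −1.38 (adjusted p = 0.000973). Krt19 rose 3.07-fold to 122, 187 and 158 CPM against 282 to 299.6 CPM in the E16.5 controls (difference −1.23, adjusted p = 0.0043), and that difference was −0.94 with an adjusted p of 0.0511 without libraries 1 and 3. Foxa1, a forkhead factor of airway and glandular epithelium, was at 30.1, 23.7 and 32.2 CPM in the E14.5 mutants and at 24.4, 28.4 and 32.3 CPM in the E16.5 mutants, while the controls went from 19.5 to 31.1 CPM to 79.3 to 92.0 CPM. The lost rise amounted to −1.71 (adjusted p = 0.000292). Krt18, the partner keratin of Krt8, was at 49.95 to 66.0 CPM and then 48.6 to 73.0 CPM in mutants, against 117 to 129 CPM in the E16.5 controls (difference −1.29, adjusted p = 0.000755). Cldn7, a tight junction claudin, ended at 16.8, 24.4 and 22.4 CPM against 47.0 to 48.4 CPM. Its lost rise was −1.51 (adjusted p = 0.000343). Outside that group, Dmrt3, a doublesex-related factor, turned into a fall in mutants (−0.58, adjusted p = 0.00964). It went from 7.20 to 8.35 CPM to 4.41, 5.79 and 5.49 CPM there, while it rose in controls to 13.8 to 17.2 CPM (difference −1.79, adjusted p = 0.000159).

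The nasal secretory program started in mutants but fell short. Of 25 genes 22 rose in mutants and 25 in controls, the median changes were 2.18 and 3.84, and 17 of the 25 changed less in mutants, against 12.4% of all genes. Sec14l3, a lipid-binding protein of ciliated airway cells, went from 10.4 to 16.4 CPM to 66.8, 74.8 and 71.7 CPM in mutants and to 273 to 282 CPM in controls, a difference of −2.36 (adjusted p = 4.51e-05). Agr2, which folds mucins, reached 5.06 to 6.74 CPM against 16.4 to 22.1 CPM. Ltf, which encodes the secreted antimicrobial lactoferrin, rose from 1.05 to 1.39 CPM to 91.0, 75.5 and 87.3 CPM in mutants, and its difference from controls (−0.76, adjusted p = 0.081) did not pass. In the fit with library 2 alone at E16.5, 12 of the 25 genes changed less.

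Motile cilium genes were sorted into 2 sets by whether the difference in age change was called. Of 36 genes, 34 rose in mutants and 36 in controls, with medians of 2.80 and 3.86. The rise was called smaller in mutants for 18, against 12.4% of all genes with a lower age change. In the 18 genes with a smaller rise the E16.5 mutant mean was 24.5% to 71.3% of the E16.5 control mean, with a median of 30.4%, and 13 of them were under 40%. In the other 18 it was 62.6% to 293%, with a median of 89.9%, and none was under 40%. This sorting used the test of the difference, so the 2 medians describe it and do not test it. The sets are the 2 sides of the cutoff: Ak7, with a difference of −0.82, was not called, while Rfx2, with −0.66, was. Dnah5, a heavy chain of outer dynein arms, rose from 6.11, 4.35 and 6.54 CPM to 221, 329 and 302 CPM in mutants, and reached 202 to 245 CPM in controls. Ccdc40, which sets the spacing of axonemal complexes, and Spag16, of the central apparatus, reached 114 to 169 CPM and 47.8 to 55.2 CPM in mutants, against 102 to 112 CPM and 48.4 to 57.4 CPM in controls. Lrrc23, a radial spoke protein, rose only from 14.965 to 18.1 CPM to 58.7, 66.3 and 54.2 CPM, against 184 to 215 CPM in controls, a difference of −2.05 (adjusted p = 6.45e-05). Dnah9, another outer arm heavy chain, reached 19.6, 25.9 and 24.8 CPM against 76.1 to 86.8 CPM, and Spag6, a central apparatus protein, 13.9 to 15.7 CPM against 56.3 to 64.6 CPM. So members of the same axonemal structures lay on both sides of the cutoff. The E16.5 mutant libraries of Lrrc23, Dnah9 and Spag6 all lay below the controls, but these genes come from the set with a called difference, which favors such separation. With library 2 alone at E16.5, 15 of the 36 genes still rose less in mutants.

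**Figure D4:**
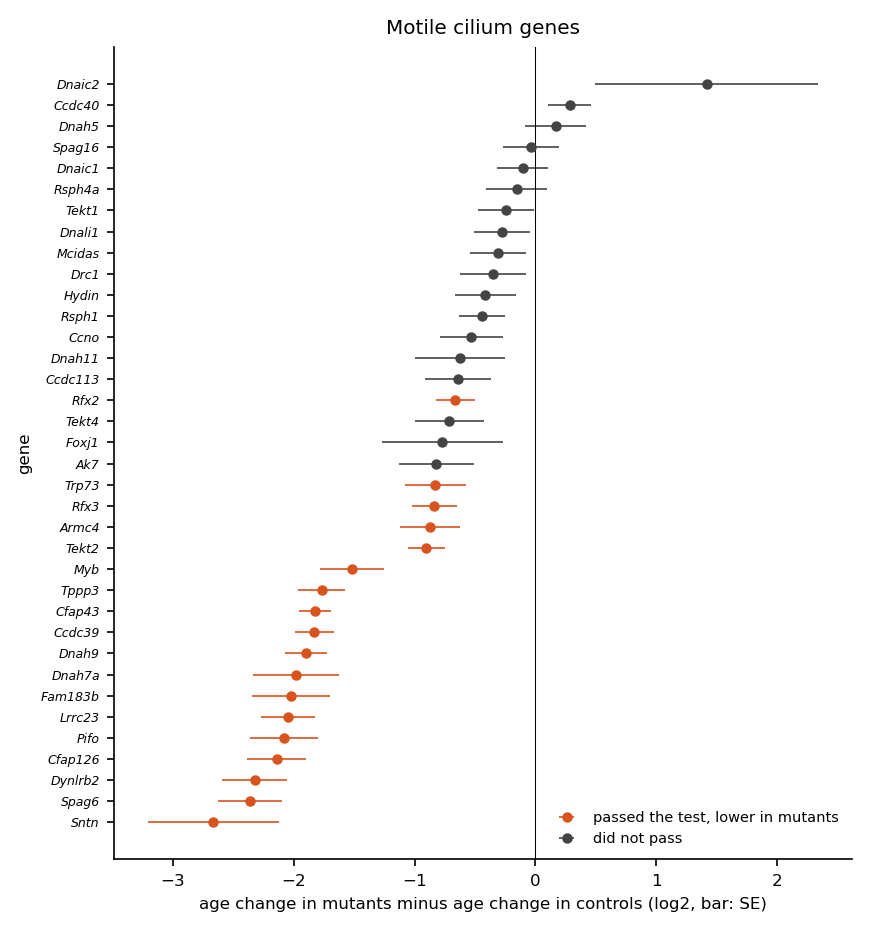
Difference in age change (mutants minus controls, log2, with the SE as bar) of 36 motile cilium genes, ordered from the largest to the smallest. The 18 genes that passed the test with a smaller rise in mutants are coloured, and 13 genes from Myb to Sntn lie at −1.52 or below, the next being Tekt2 at −0.90; the wide bar of Dnaic2 comes with a level of 619 CPM in library 3 against 55.4 and 93.0 CPM in libraries 1 and 2.

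The regulators of the ciliated cell differed from one another as well. Foxj1, the forkhead factor that drives motile cilium genes, stood at 102 CPM in E16.5 mutant library 1, inside the 83.4 to 108 CPM of the E14.5 mutants, and at 394 and 353 CPM in libraries 2 and 3, near the control level of 405 to 481 CPM. Its rise was 1.56 with all libraries and 1.98 without library 1. Myb, an early factor of multiciliated cells, lost its rise (25.2 to 38.4 CPM, then 40.7, 25.9 and 37.1 CPM in mutants, against 76.6 to 96.0 CPM in the E16.5 controls, difference −1.52, adjusted p = 0.00135). The RFX factors, which act with Foxj1, rose less than in controls. Rfx2 ended at 21.0 to 29.6 CPM against 39.7 to 41.5 CPM (difference −0.66, adjusted p = 0.0101, or −0.44 and 0.0695 without libraries 1 and 3), and Rfx3 at 31.0 to 40.3 CPM against 54.8 to 70.8 CPM (difference −0.84, adjusted p = 0.00638). The mutant rise of Rfx3, 0.33 with an adjusted p of 0.0492, was no longer called when any of 5 libraries was left out.

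Promoters of genes from both sets are shown with their matches to an RFX motif. Whether RFX factors regulate these genes here was not tested. They are RefSeq sequences of build GRCm38.p6, 250 bases before to 50 after the annotated start, whereas the counts were made on mm9. Capitals mark the RFX motif GTTGCC on either strand (GGCAAC on the printed strand when it lies on the other). For Drc1 and Spag16 the difference from controls was not called (−0.35 and −0.04, adjusted p = 0.398 and 0.933), and Lrrc23 and Fam183b rose less. An uncalled difference is not an equal rise: Drc1 was at 42.0, 60.8 and 52.9 CPM in the E16.5 mutants, below the 63.5 to 65.7 CPM of the E16.5 controls. Their windows are chr5:30281143-30281442 (+), chr1:69826720-69827019 (+), chr6:124779678-124779977 (−) and chr11:58801911-58802210 (−).
Drc1: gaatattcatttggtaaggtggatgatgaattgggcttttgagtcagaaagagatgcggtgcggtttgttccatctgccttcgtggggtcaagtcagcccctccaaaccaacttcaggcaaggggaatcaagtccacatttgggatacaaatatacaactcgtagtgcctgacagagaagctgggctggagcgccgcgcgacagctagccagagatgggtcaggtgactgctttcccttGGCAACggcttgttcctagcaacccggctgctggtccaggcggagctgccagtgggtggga
Spag16: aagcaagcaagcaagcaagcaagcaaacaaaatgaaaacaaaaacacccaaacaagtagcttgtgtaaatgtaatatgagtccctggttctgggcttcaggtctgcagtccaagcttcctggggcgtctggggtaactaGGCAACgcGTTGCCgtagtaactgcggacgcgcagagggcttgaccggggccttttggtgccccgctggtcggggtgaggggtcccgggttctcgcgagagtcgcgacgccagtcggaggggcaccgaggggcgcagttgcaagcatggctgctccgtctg
Lrrc23: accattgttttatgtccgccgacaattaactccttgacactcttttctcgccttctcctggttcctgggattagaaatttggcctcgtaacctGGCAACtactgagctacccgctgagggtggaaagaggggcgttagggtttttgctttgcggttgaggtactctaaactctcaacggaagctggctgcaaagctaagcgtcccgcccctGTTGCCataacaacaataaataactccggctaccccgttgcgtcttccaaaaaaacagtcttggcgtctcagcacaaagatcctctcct
Fam183b: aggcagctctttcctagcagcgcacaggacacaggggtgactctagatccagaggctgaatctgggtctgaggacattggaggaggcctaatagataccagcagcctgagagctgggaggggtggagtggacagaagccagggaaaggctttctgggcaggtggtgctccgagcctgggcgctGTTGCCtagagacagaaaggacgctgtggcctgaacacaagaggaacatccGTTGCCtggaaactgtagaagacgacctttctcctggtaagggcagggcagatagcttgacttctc
The RFX motif was found in 21 of the 38 promoters (55.3%) of the 31 cilium genes with an entry, and in 4111 of all 32851 promoters (12.5%). By set it was in 12 of 22 promoters (54.5%) of genes with a smaller rise and in 9 of 16 (56.3%) of the others. It was in 1 of 21 promoters of the nasal secretory list and in 2 of 21 of the cornified list. A match is a description of letters in the window, not a bound site.

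The bone program ran down in both genotypes, and further in mutants for 3 of its main regulators. Runx2, the master factor of osteoblasts, stood at 152, 173 and 202 CPM in the E14.5 mutants and at 6.17, 10.3 and 9.50 CPM in the E16.5 mutants. The E14.5 controls held 259 to 326 CPM and the E16.5 controls 59.8 to 73.6 CPM, so each mutant group lay below the controls of its age. The fall was 20.4-fold in mutants (−4.35 ± 0.19 SE, adjusted p = 8.8e-10) and 4.42-fold in controls, a difference of −2.20 (adjusted p = 4.87e-05). Sp7, the osteoblast factor downstream of Runx2, went from 97.4, 117 and 104 CPM to 5.94, 8.42 and 8.09 CPM, a 14.3-fold fall against 6.37-fold in controls. Dlx5, a homeobox activator of osteoblast genes, fell 12.1-fold in mutants and 3.98-fold in controls (difference −1.60, adjusted p = 0.000151). Creb3l1, which controls secretion of bone matrix, went from 72.5 to 82.1 CPM to 4.10, 10.2 and 5.74 CPM. Of 13 osteoblast transcription factors 9 fell and 2 rose in mutants, where 10 fell and 2 rose in controls, and the medians were −1.15 and −1.10.

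Dlx3, a homeobox factor of bone and tooth, lost its decline. It stood at 26.4, 32.7 and 35.1 CPM and then at 30.9, 33.4 and 39.8 CPM in mutants, while a fall took it from 56.5 to 68.1 CPM to 25.1 to 33.3 CPM in controls (difference 1.24, adjusted p = 0.000507). The E16.5 levels of Dlx3 overlapped between the genotypes, and the difference lay in the lower start of the mutants.

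Most matrix genes fell. In the bone matrix and mineralization list 27 of 35 genes fell and 5 rose in mutants, against 28 and 4 in controls, with medians of −1.17 and −1.38. Ibsp, bone sialoprotein, went from 429, 365 and 385 CPM to 34.6, 34.0 and 32.9 CPM. The E16.5 controls, at 279 to 399 CPM, overlapped with the E14.5 mutants for Ibsp. Its fall in mutants exceeded that in controls by −1.11 (adjusted p = 0.000571). Col1a2, the second chain of type I collagen, fell 8.46-fold to 221, 392 and 526 CPM, against 2.38-fold in controls (difference −1.83, adjusted p = 0.00111). The first chain, Col1a1, fell 3.43-fold in mutants and 2.48-fold in controls, and its difference (−0.47, adjusted p = 0.154) did not pass. Fn1, the matrix protein fibronectin, fell 9.52-fold, from 762 to 835 CPM to 52.3, 106 and 91.7 CPM, against 2.41-fold (difference −1.98, adjusted p = 0.000198). For 15 of the 35 genes the age change was higher in mutants than in controls, that is a weaker fall for most, and for 7 it was lower. Alpl, the phosphatase of mineralizing cells, and Phex, a peptidase of osteocytes, are in the first set: Alpl fell from 160 to 182 CPM to 74.6 to 80.2 CPM in mutants and from 346 to 382 CPM to 93.3 to 98.7 CPM in controls. Spp1, osteopontin, is there too: it was at 16.4, 4.71 and 10.8 CPM and then at 3.999, 6.12 and 6.63 CPM in mutants, while it fell from 87.9 to 206 CPM to 19.3 to 22.8 CPM in controls (difference 1.84, adjusted p = 0.0258). The Spp1 difference was lost in 3 of the 12 single omissions and had an adjusted p of 0.0761 without libraries 1 and 3. The osteocalcin genes rose in mutants: Bglap stood at 0.0237 to 0.0248 CPM and then at 0.146, 0.240 and 0.119 CPM (adjusted p = 0.000641), and Bglap2 at 0.0248, 0 and 0 CPM and then at 0.446, 0.240 and 0.381 CPM (adjusted p = 0.000607). Their E14.5 mutant levels were too close to 0 for a fold change, and reads of these near-identical copies are uncertain. Library 2 alone at E16.5 gave 10 higher and 4 lower.

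Of 15 osteoclast genes 6 fell and none rose in mutants by edgeR (1 rose at an unadjusted p under 0.05, 1 by DESeq2), where 10 fell in controls. The age change was higher in mutants for 5 of the 15, with a weaker fall or none, and lower for 1, and with library 2 alone these counts were 5 and 0. Atp6v0d2, a proton pump subunit of osteoclasts, went from 3.66, 4.33 and 4.99 CPM to 1.39, 1.49 and 1.21 CPM in mutants and from 6.27 to 8.08 CPM to 0.382 to 0.586 CPM in controls (difference 2.21, adjusted p = 0.000102). Dcstamp, needed for osteoclast fusion, fell from 0.780, 1.29 and 0.853 CPM to 0.129, 0.307 and 0.214 CPM, less than in controls by 3.17 (adjusted p = 0.0164), and its own fall had an adjusted p of 0.0815 with library 2 alone. Ocstamp, another fusion gene, fell from 1.03 to 1.42 CPM to 0.180 to 0.429 CPM, less than in controls by 2.26 (adjusted p = 0.00362). Mmp9, the gelatinase of osteoclasts, had the deeper fall: it went from 60.5, 69.7 and 66.4 CPM to 2.03, 3.03 and 2.61 CPM, and that fall exceeded the control fall by −1.09 (adjusted p = 0.00268), although with library 2 alone at E16.5 the difference was −0.80 with an adjusted p of 0.0558. Acp5, the acid phosphatase of osteoclasts, ran at 21.0 to 25.9 CPM and 19.7 to 28.6 CPM in mutants.

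A subset of cartilage genes rose in mutants. Col2a1, the main collagen of cartilage, went from 86.5, 81.1 and 90.1 CPM to 229, 369 and 201 CPM, whereas the controls went from 45.1 to 65.2 CPM down to 24.5 to 29.9 CPM. The mutant rise was 3.10-fold (1.63 ± 0.20 SE, adjusted p = 1.5e-05) and the difference between genotypes 2.63 (adjusted p = 4.6e-05), and the E16.5 groups did not overlap. Cytl1, a cytokine-like protein of chondrocytes, went from 0.545, 0.936 and 0.735 CPM to 20.4, 6.71 and 10.4 CPM in mutants, and was at 0.0113 to 0.287 CPM in the E16.5 controls. Col9a3, a collagen that coats type II fibrils, rose from 45.5 to 46.4 CPM to 107, 78.8 and 89.5 CPM, with a difference of 1.62 (adjusted p = 1.41e-05). Sox9, the master factor of chondrocytes, rose from 33.5, 62.3 and 51.3 CPM to 74.0, 118 and 103 CPM, but the difference from the control change did not pass (0.59, adjusted p = 0.267). The rise was not general: of 25 cartilage genes 9 rose and 3 fell in mutants, against 4 and 11 in controls, and the mutant median was −0.02. Acan, the large proteoglycan of cartilage, was flat at 44.954 to 46.2 CPM and 35.0 to 43.9 CPM. Library 2 alone at E16.5 gave 7 genes that rose and 4 that fell.

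**Figure D5:**
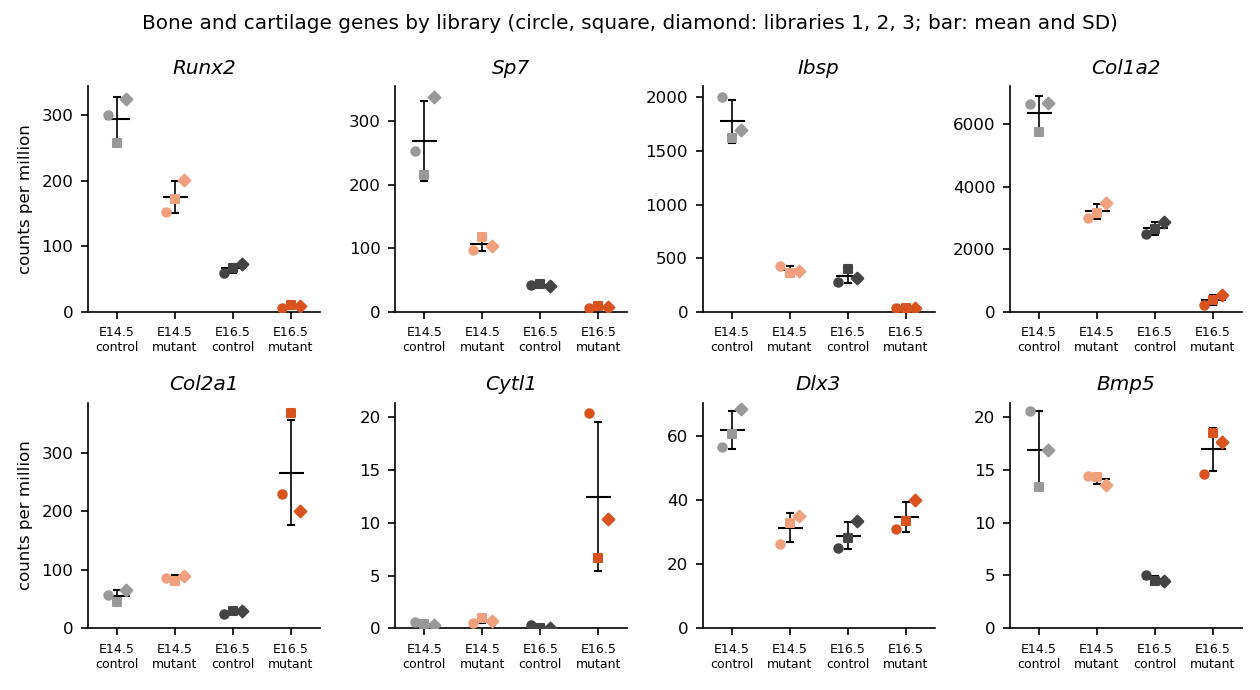
CPM (vertical axes) of 8 skeletal genes in the 4 groups (horizontal axes), with a symbol for each library and a bar for the mean and SD. Runx2, Sp7, Ibsp and Col1a2 are lowest in the E16.5 mutants, Col2a1 and Cytl1 are highest there, Bmp5 ends above the E16.5 controls, and Dlx3 overlaps with them.

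Several BMP pathway genes lost their decline or turned. Bmp5, a BMP ligand, held at 14.4, 14.3 and 13.5 CPM and then 14.6, 18.5 and 17.6 CPM in mutants, while the controls went from 13.3 to 20.5 CPM to 4.48 to 5.01 CPM (difference 2.12, adjusted p = 2.08e-05). Smad9, a transducer of BMP receptors, rose from 30.2, 33.1 and 35.1 CPM to 53.4, 83.6 and 80.4 CPM in mutants and fell from 38.2 to 45.7 CPM to 10.5 to 11.7 CPM in controls, so the E16.5 groups lay far apart (difference 3.06, adjusted p = 2.32e-06). Of 27 BMP pathway genes 8 rose and 8 fell in mutants, where 5 rose and 14 fell in controls. Over all tested genes 27.2% rose and 24.4% fell in mutants. The age change was higher in mutants for 9 of the 27 and lower for 1, against 9.97% and 12.4% of all genes. The mutant median was 0.02, and −0.005 with upper-quartile scaling.

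Among Hedgehog pathway genes, Gli1 and Ptch1 fell with no called difference from controls, while Shh and Hhip changed otherwise than in controls. Gli1 and Ptch1, direct readouts of the pathway, fell by 1.14 and 1.13 in mutants, and their differences (0.28 and −0.26, adjusted p = 0.162 and 0.145) did not pass. Shh, the ligand made by the palatal epithelium, rose from 16.98, 19.7 and 18.7 CPM to 23.2, 26.4 and 27.4 CPM in mutants, against a fall from 18.6 to 25.0 CPM to 11.1 to 14.7 CPM in controls (difference 1.24, adjusted p = 0.000472). Hhip, a Hedgehog-binding inhibitor, fell from 40.0045, 41.2 and 48.0 CPM to 6.45, 9.45 and 6.67 CPM, beyond the control change by −2.13 (adjusted p = 2.06e-05). Of 16 genes 12 fell and 2 rose in mutants, and 14 and 2 in controls. The age change was higher in mutants for 2 of the 16 and lower for 3. In the Wnt response list 8 of 23 rose and 8 fell in mutants. Dkk1, a secreted Wnt inhibitor, fell from 21.4 to 25.1 CPM to 5.83 to 7.06 CPM in mutants and from 46.1 to 49.7 CPM to 3.22 to 4.15 CPM in controls, a weaker fall by 1.92 (adjusted p = 6.35e-06).

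Patterning factors of the palate mesenchyme mostly declined with age under Fgf8 too. Of 30 genes 19 fell and 3 rose in mutants, and 21 and 4 in controls, with medians of −0.60 and −0.94. Over all tested genes 24.4% fell and 27.2% rose in mutants. The decline was not the same throughout: the age change was higher in mutants for 9 of the 30 and lower for 1, against 9.97% and 12.4% of all genes. Lhx6, a LIM homeobox factor of oral mesenchyme, fell from 182, 196 and 188 CPM to 69.9, 68.1 and 67.6 CPM in mutants and from 193 to 220 CPM to 32.8 to 40.9 CPM in controls, so the fall was weaker by 1.004 (adjusted p = 6e-05). Dlx1, a homeobox factor, fell from 35.6 to 44.8 CPM to 17.2 to 23.8 CPM in mutants and to 2.80 to 6.17 CPM in controls (difference 1.99, adjusted p = 0.000502). Tbx22, a T-box factor needed for palate bone, fell by 1.52 in mutants (difference from controls −0.02, adjusted p = 0.971). Tbx3 started high: the E14.5 mutants held 104, 120 and 131 CPM against 12.9 to 19.3 CPM in controls, and the E16.5 mutants 80.7, 124 and 140 CPM against 36.1 to 47.2 CPM. It therefore counts as a lost rise (difference −1.35, adjusted p = 0.00365) although it lay above the controls at both ages.

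Of 28 TGF-beta and matrix remodeling genes, 9 rose and 13 fell in mutants, against 6 and 19 in controls, and the age change was higher in mutants for 16 (10 with library 2 alone) and lower for 2. Tgfbr2, the type II receptor, was near its final level from the start: 148, 145 and 164 CPM at E14.5 and 198, 195 and 213 CPM at E16.5 in mutants, while the controls went from 28.5 to 41.2 CPM to 190 to 210 CPM (difference −2.09, adjusted p = 4.81e-06). Timp3, a metalloproteinase inhibitor, lay at 163 to 192 CPM and 172 to 215 CPM in mutants and fell in controls (difference 0.86, adjusted p = 0.000544). Among fibroblast genes Col14a1, a collagen of maturing connective tissue, rose from 109 to 128 CPM to 372, 452 and 482 CPM, with no called difference from controls. Pi16, which marks adventitial fibroblasts, rose from 1.21 to 1.505 CPM to 6.18 to 7.38 CPM and in controls to 18.1 to 23.7 CPM (difference −1.77, adjusted p = 0.000152). Of 24 such genes 9 rose and 6 fell in mutants and 7 rose and 12 fell in controls.

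The decline of vessel genes was weaker in mutants. Of 20 endothelial genes 19 fell in controls and 11 in mutants, where 1 rose, and for 17 the age change was higher in mutants, against 9.97% of all genes. The medians were −0.31 in mutants and −1.15 in controls. Kdr, the main VEGF receptor of endothelium, was at 71.2, 76.9 and 79.4 CPM and then at 79.0, 47.7 and 68.5 CPM in mutants, while the controls went from 90.9 to 97.4 CPM to 35.2 to 40.4 CPM (difference 1.12, adjusted p = 0.00127). Pecam1, an adhesion molecule of endothelium, was at 82.3 to 85.2 CPM and then 83.2, 64.1 and 72.8 CPM in mutants and ended at 45.3 to 50.2 CPM in controls. Flt4, the receptor of lymphatic vessels, fell in both but less in mutants (difference 0.88, adjusted p = 0.000178). With library 2 alone at E16.5, 14 of the 20 genes fell in mutants and the age change of 17 was still higher than in controls. Vegfa, the ligand of Kdr, did the opposite: it fell from 79.8, 107 and 85.1 CPM to 18.7, 33.1 and 31.1 CPM in mutants and went from 77.9 to 88.1 CPM to 102 to 112 CPM in controls, where the change was not called (adjusted p = 0.0701, difference −2.09, adjusted p = 8.94e-05). Smooth muscle and pericyte genes fell for 6 of 14 and rose for 3 in mutants, where 11 fell and 2 rose in controls. Cspg4, the pericyte proteoglycan NG2, differed by 0.98 (adjusted p = 9.17e-05).

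Embryonic globins fell and macrophage genes rose in both genotypes. Hbb-y, an embryonic globin, went from 171, 173 and 156 CPM to 3.66, 4.41 and 3.001 CPM in mutants. This was the largest fall in mutants under the naming rule given below (−5.50 ± 0.16 SE, adjusted p = 3.06e-11). The Hbb-y difference from controls (0.47, adjusted p = 0.113) did not pass. Hba-x, its alpha-like partner, fell by 4.31 in mutants and by 4.47 in controls. Of 24 macrophage and white cell genes 17 rose and none fell in mutants by edgeR (0 fell at an unadjusted p under 0.05 and none by DESeq2), also with library 2 alone at E16.5, where 14 rose, and 13 rose and 2 fell in controls. Lyz2, lysozyme of macrophages, rose from 9.62 to 12.8 CPM to 51.0, 37.4 and 36.3 CPM, and its difference of −0.39 did not pass. Of 11 myogenic genes 6 fell in each genotype, and of 30 sarcomere genes 5 rose in each, with 4 falls in mutants and 9 in controls. The shares of all tested genes in mutants were 27.2% for rises and 24.4% for falls.

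Genes of cell division fell with age. Of 32 cell cycle genes 31 fell in both genotypes, with medians of −0.51 in mutants and −0.54 in controls, against 24.4% of all genes that fell in mutants. Plk1, a mitotic kinase, went from 83.1, 91.4 and 86.0 CPM to 50.01, 52.7 and 56.7 CPM, and its difference was 0.05 (adjusted p = 0.752). The age change was higher in mutants for 3 and lower for 1 of these genes, and 6 and 0 with upper-quartile scaling. Cdkn1a, the p21 inhibitor, rose from 50.9 to 67.0 CPM to 189, 259 and 212 CPM. Of 25 genes of the fetal growth program 15 fell and 1 rose in mutants, against 20 and 1 in controls. Hmga2, a chromatin protein of fetal growth, went from 242 to 293 CPM to 48.1, 56.9 and 57.8 CPM. Peg10, an imprinted gene, fell from 468 to 570 CPM to 133 to 162 CPM, a weaker fall than in controls by 1.45 (adjusted p = 0.000111).

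Several response programs rose in both genotypes. Of 20 immediate early and heat shock genes 16 rose and 3 fell in mutants, against 15 and 2 in controls, and the age change was higher in mutants for 1 gene (5 with library 2 alone) and lower for 1. These 20 genes summed to 1352, 3087 and 2181 CPM in E16.5 mutant libraries 1, 2 and 3, and to 1063 to 1339 CPM in the E14.5 mutants. Library 1 thus lay near the earlier level. Of 16 clock genes 10 rose and 2 fell in mutants, against 11 and 4 in controls. Of 20 hypoxia and glycolysis genes 12 rose and 1 fell in mutants, against 16 and 0 in controls. For 4 of the hypoxia and glycolysis genes the age change was lower in mutants. Over all tested genes 27.2% rose and 24.4% fell in mutants. Per1, a clock gene, rose by 1.12 on the log2 scale in mutants, from 39.3 to 44.1 CPM to 88.9 to 96.7 CPM. The 18 Schwann cell and glia genes did not move one way: 8 rose and 2 fell in mutants (median 0.55), and 6 rose and 6 fell in controls (median 0.05). Ngfr, a neurotrophin receptor, fell from 153 to 162 CPM to 93.2 to 101 CPM, less than in controls by 0.84 (adjusted p = 3.24e-05).

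The 2 largest lost rises differed from controls at the earlier age. Ctnnb1, beta-catenin of adhesion and Wnt signaling, stood at 1873, 1792 and 1845 CPM in the E14.5 mutants and 1567, 1806 and 1692 CPM in the E16.5 mutants. The E16.5 controls held 1846 to 1866 CPM, and the E14.5 controls were low, at 212 to 262 CPM. The lost rise of −3.10 (adjusted p = 1.34e-08) thus goes with the low level of the 3 E14.5 control libraries. Foxp1, a forkhead repressor, had the same form, with 65.7 to 83.0 CPM and then 78.8, 98.6 and 125 CPM in mutants, and 7.71 to 13.0 CPM in the E14.5 controls alone. Ccdc67 (also known as Deup1, a centriole amplification protein of multiciliated cells) and Cdc20b were the other kind: Ccdc67 was at 34.9, 25.7 and 27.7 CPM and then 21.5, 26.6 and 21.6 CPM in mutants while the controls reached 95.6 to 119 CPM (difference −2.48, adjusted p = 5.13e-05), and Cdc20b ended at 4.95 to 6.03 CPM against 23.0 to 31.8 CPM. The Y-linked genes Uty, Ddx3y and Eif2s3y are also among the 8 largest lost rises, beside the shift of the sex markers given above.

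Changes seen in mutants without a counterpart in controls were few, 106 rises and 19 falls of at least 2-fold that passed in mutants and in the test of the difference but not in the same direction in controls. Foxp2, a forkhead factor, was high at E14.5 and then fell below the E16.5 controls, from 19.8, 17.5 and 27.2 CPM to 5.19, 3.93 and 5.12 CPM, with controls at 2.75 to 5.59 CPM and 5.87 to 7.52 CPM (difference −2.79, adjusted p = 0.000104). Lox, which crosslinks collagen and elastin, fell from 226, 236 and 281 CPM to 61.5, 86.5 and 80.0 CPM, against 470 to 549 CPM and 419 to 512 CPM in controls (difference −1.53, adjusted p = 9.67e-05). Colec10, a secreted collectin, rose from 2.07 to 3.33 CPM to 9.48, 11.8 and 12.3 CPM, and Arid5a, an RNA-binding regulator, from 6.77 to 8.33 CPM to 18.3, 34.0 and 32.2 CPM, both with the E16.5 mutants above every other library. The rises are less firm than the falls as a group: with library 2 alone at E16.5 the counts were 25 and 22, and Nsg2, Syt1 and Ckb, all of them expressed in neurons, were higher in libraries 1 and 3 than in library 2 (Syt1 at 20.3, 5.89 and 12.8 CPM).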

How the data were processed

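Total RNA of 12 mouse palate libraries, 3 per group, was sequenced. The authors deposited raw read counts per gene. The submitters' processing notes name HISAT2, featureCounts, DESeq2 and the build mm9, without versions. No coordinates come with the counts, and 24 sample columns of the series table were not used here. Of 24391 genes, 17550 passed edgeR's filterByExpr. With edgeR 4.0.16 in R 4.3.3, TMM scaling and 4 group means, the quasi-likelihood test was run on the age change in mutants, in controls and on their difference, with p-values adjusted by Benjamini-Hochberg over all genes and called under 0.05. CPM were computed from the TMM-scaled totals. The script was tested on simulated data. Named genes were the 10 largest rises and falls in mutants, the 8 largest lost and mutant-only changes in each direction, and up to 4 called members and 4 with a called difference per list. The largest changes were picked among genes averaging at least 1 on the log2 CPM scale. A further condition was no overlap between the ages in the mutant libraries, or in the control libraries for lost changes. Predicted genes and date-like names were skipped there. Genes named outside this rule were chosen after their values were seen, and some items are not reported here. The comparison and the lists were chosen with earlier results of these data known. Alternatives were other scalings, filters, tools (DESeq2 1.42.0, limma 3.58.1) and sample sets, and a replicate block. The date-like names of 27 genes were not resolved.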

Additional observations from a re-analysis of the deposited data

Results flagged for a closer look

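The age change of 3921 genes differed between mutants and controls by the test of the difference itself (edgeR, adjusted p under 0.05), and named genes among them are given here with that difference on the log2 scale.

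Among the largest mutant changes, the fall was deeper in mutants for Runx2 (−2.20), Creb3l1 (−1.78), Dlx5 (−1.60), Sp7 (−1.16), Ibsp (−1.11) and Mmp9 (−1.09, while the difference was above 0 and called for 5 of 15 osteoclast genes), and the rise was smaller for the epithelial genes Crnn (−2.52), Klk14 (−1.95) and Serpinb3a (−1.69). Lost rises were Ctnnb1 (−3.10), Foxp1 (−2.98), Ccdc67 (−2.48), Cdc20b (−2.43) and Efhc2 (−2.35), and the Y-linked Uty (−2.29), Ddx3y (−2.15) and Eif2s3y (−2.09). Lost falls were Rpl29 (6.48), Cbln4 (4.69), Elavl4 (3.89), Nefm (3.12), Smad9 (3.06), Stmn2 (2.98), Rtn1 (2.91) and Grik3 (2.76). Rpl29 has near-identical copies, so its reads are uncertain. Changes in mutants alone were the rises Colec10 (1.70), Nsg2 (1.83), Arid5a (1.78), A2m (2.03), Col2a1 (2.63), Ckb (1.33) and Syt1 (1.87) and the falls Foxp2 (−2.79), Vegfa (−2.09), Lox (−1.53) and Scn4b (−1.48).

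With library 2 as the only E16.5 mutant, the differences no longer called were those of Klk14 (−1.93, adjusted p = 0.071), Crnn (−2.37, adjusted p = 0.0708), Serpinb3a (−1.63, adjusted p = 0.107), Mmp9 (−0.80, adjusted p = 0.0558), Elavl4 (0.88, adjusted p = 0.465), Nefm (−1.26, adjusted p = 0.276), Stmn2 (0.92, adjusted p = 0.0938), Rtn1 (0.74, adjusted p = 0.254), Nsg2 (0.40, adjusted p = 0.533), Ckb (0.11, adjusted p = 0.562) and Syt1 (0.75, adjusted p = 0.106). Leaving out single libraries ended the call for Klk14 (4 of the 12 omissions), Crnn (4 of the 12 omissions), Serpinb3a (8 of the 12 omissions), Nefm (10 of the 12 omissions), Nsg2 (8 of the 12 omissions), Ckb (11 of the 12 omissions). The part of the neuronal RNA of libraries 1 and 3 in these results was not tested.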

How the results depend on the processing

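With DESeq2 size factors, upper-quartile factors, DESeq2's own test and no low-count filter, the counts of calls and classes stayed within 1.5 times of those reported, and 4 to 7 of 405 called values of named genes lost the call in each, none turning direction. Of those 405, 3 lost the call with the replicate block, 42 under limma-voom, 229 with a 2-fold minimum, 103 with replicates 1 and 2 alone, 85 with library 2 alone (where 12 more turned) and 15 to 40 when 1 library was left out, as did 5 of 340 with a filter of 5 CPM. Under limma-voom the rises in mutants alone were 53. With a filter of 5 CPM in 3 libraries the 2-fold rises and falls in mutants were 1458 and 242, the control rises 1925 with 67 lost, the control falls 883 with 166 lost, and the changes in mutants alone 22 rises and 4 falls. With a 2-fold minimum inside the test (edgeR's glmTreat), 1717 genes passed in mutants (1521 higher, 196 lower), 3289 in controls (2464 higher, 825 lower) and 344 for the difference (58 higher, 286 lower), with 1409 rises also matured and 104 lost, 164 falls also matured and 39 lost, and 9 rises and 8 falls in mutants alone. With a 1.5-fold minimum in controls, 368 rises were lost, and of 2856 falls 1971 also matured and 468 were lost. With a 4-fold minimum, of 1893 rises 1665 also matured and 75 were lost, and of 373 falls 228 also matured and 83 were lost.

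Replicates 1 and 2 alone gave 1961 genes for the difference (851 higher, 1110 lower), 118 lost rises, 118 lost falls, and 19 rises and 11 falls in mutants alone. Library 2 as the only E16.5 mutant, assumed to vary like the other groups, gave 2017 (865 higher, 1152 lower), 102 lost falls and 25 rises in mutants alone. Of the 9059 calls in mutants 6809 were still called in the same direction there, and of the 3921 for the difference 1867. In that fit the age change in mutants turned for Cbln4 (−0.14), Nefm (−3.83), Stmn2 (−1.22), Rtn1 (−0.95), Ccnd1 (−1.06), Pou3f1 (−0.13), Elavl3 (−2.66), Snap25 (−1.01), Ina (−4.24), Mapt (−0.17), Stmn3 (−3.94), Rax (−3.27), Fgf15 (−0.50) and Tubb3 (−0.67), and the difference for Nefm (−1.26), Snap25 (−0.085), Ina (−1.66) and Stmn3 (−0.48). The cause was not tested. Leaving out 1 of the 12 libraries at a time gave 201 to 440 lost falls, highest without E16.5 mutant 2, and 48 to 245 rises in mutants alone, lowest without E16.5 mutant 1 and highest without E16.5 mutant 2.

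The labels number the replicates but do not say that a number pairs samples. Deviations of same-numbered E14.5 and E16.5 mutants correlated at −0.02, 0.01 and 0.16 over the 17550 tested genes. Over all 18 same-numbered pairs they ran from −0.02 to 0.22, and among the 13463 genes averaging more than 1 on the log2 CPM scale from 0.06 to 0.69, highest for number 3. Not every pair was over 0.1, so the samples were not taken as paired. In those 13463 genes the number 3 libraries correlated at 0.54 to 0.69 in every pair of groups. They correlated negatively with numbers 1 and 2 of the other groups. The main fit does not model what the number 3 libraries share, and its cause was not tested. With a replicate block the calls were 10531 in mutants and 6055 for the difference, 2802 of them higher. The block moved the genes with a higher difference to 15 for fetal growth (7 without it), 7 for Hedgehog (2), 7 for osteoblast factors (4) and 7 for cell cycle (3), and those with a lower one to 16 for cornified genes (9) and 7 for hypoxia (4).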
